A study of Mus musculus with 4 samples.

Results

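A set of 9 genes of the transforming growth factor-β (TGF-β) pathway was followed through RNA-seq libraries of CT26 and MC38 cells, a pair of transplantable mouse colorectal cancer lines. The members were taken by gene symbol, 9 of the 51905 genes in the deposited tables, and comprise the ligands Tgfb1, Tgfb2 and Tgfb3, the receptors Tgfbr1 and Tgfbr2, the signal transducer Smad3, the inhibitors Smad7 and Skil, and Id1. Lentiviral infection and puromycin selection gave each line a hairpin directed at GFP (shGFP, the control) or at the mouse mitotic kinase Aurora-A (shmaurka-1), and RNA was taken 48 h after seeding. All cells were labelled wild type in genotype. The CT26 cells were grown in RPMI-1640 and the MC38 cells in high glucose DMEM, so line and medium cannot be told apart. For each of the 4 conditions 1 library was sequenced, with 1 hairpin against Aurora-A, so that a difference within a line had no replicate behind it and an effect of that hairpin's sequence cannot be told apart from loss of Aurora-A.

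TGF-β ligands are secreted in a latent form and, once released, bind the type II receptor Tgfbr2, which recruits and phosphorylates the type I receptor Tgfbr1. The activated type I receptor phosphorylates Smad2 and Smad3, which enter the nucleus with Smad4 and switch target genes on or off. Smad7, itself induced by the pathway, blocks the activated receptor, Skil (SnoN) represses transcription by SMAD complexes, and Id1, an inhibitor of basic helix-loop-helix factors, is best known as a target of bone morphogenetic proteins (BMPs), the sister branch of the family. In the colon TGF-β restrains epithelial growth, and in tumours it acts on stromal and immune cells as well.

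The libraries held 22207768 to 23752269 fragments, and the deepest had 1.07 times as many as the shallowest. Aurka, the target of the hairpin, dropped from 5724 fragments to 1093 between the CT26 libraries, a log2 change of -2.26 (95% interval -2.36 to -2.17), and from 2300 to 413 between the MC38 libraries, a log2 change of -2.44 (95% interval -2.60 to -2.29). CT26 cells were labelled as fibroblasts and MC38 cells as epithelial cells. In the CT26 shGFP, CT26 shmaurka-1, MC38 shGFP and MC38 shmaurka-1 libraries, in that order, which is kept for all lists of 4 values, the epithelial adhesion gene Epcam had 0, 1, 0 and 1 fragments and E-cadherin (Cdh1) had 1, 2, 6 and 4. Of the other 6 epithelial markers, Krt19 and Cldn7 had at most 13 fragments in a library and Krt8 had 21, 13, 22 and 18. The keratins Krt18, with 1516, 1485, 12 and 14 fragments, and Krt20, with 434, 205, 2 and 0, were higher in CT26. The brush border gene Vil1, with 0, 0, 38 and 29, was higher in MC38, and its deposited locus is shared with 6 other genes. The summed FPKM of the 8 was 42.8, 42.6, 1.29 and 0.964. Of 8 mesenchymal markers, Vim had 15826, 14721, 15340 and 12373 fragments. Col1a2, with 12156, 11459, 1426 and 1396, was higher in CT26. Col3a1, with 809, 571, 1430 and 1374, was higher in MC38, and Thy1 had 2, 2, 1 and 5. The summed FPKM of the mesenchymal markers was 989, 990, 604 and 612. In MC38, labelled epithelial, the defining markers Epcam and Cdh1 were thus at or near 0, and Vil1 was present at a low level. Of 5 immune markers, 2 reached 10 fragments in each library, namely the macrophage markers Cd68, with 109, 79, 145 and 127, and Lyz2, with 37, 31, 98 and 69. Cd3e, a marker of T cells, was at 0 throughout and the leukocyte marker Ptprc had 2, 2, 0 and 3 fragments. The summed FPKM of the 5 was 5.58, 4.63, 8.10 and 6.29. The endothelial marker Cdh5 had 24, 25, 173 and 81 fragments, and the summed FPKM of the 3 endothelial markers was 0.466, 0.578, 1.66 and 0.790. The part of these markers in the results on the 9 genes was not tested.

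Between the lines 8 of the 9 genes passed the test, where 73.8% of all genes tested did, and with the hairpin against Aurora-A 0 of the 9 did, where 2.88% of all genes did (edgeR). In CT26 the 3 ligands and Id1 were lower than in MC38, and Tgfbr2, Smad3, Smad7 and Skil were higher. Only Tgfbr1 did not pass the test between the lines. Within CT26, 5 of the 9 genes had fewer fragments with shmaurka-1 than counting error allowed (20.6% of all genes), with Tgfb3 the lowest at 0.633 of its control, and within MC38 0 did (21.6% of all genes).

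**Figure D1:**
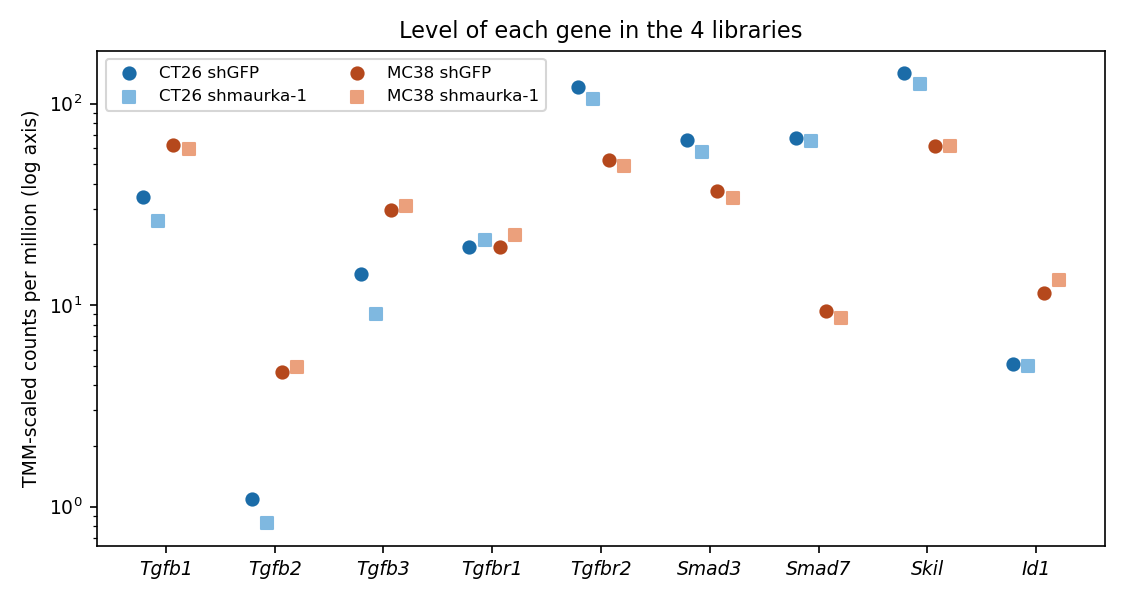
CPM after TMM scaling (log axis) of the 9 genes in the 4 libraries, 1 point per library. For every gene except Tgfbr1, both libraries of one line lie above both libraries of the other. The share of all genes that separate in this way was not counted, and 73.8% of all genes tested passed the test between the lines.

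Tgfb1 is the most widely expressed of the ligands and the one made by most immune and stromal cells. Its deposited locus is 25687001 to 25705077 of chromosome 7 (GRCm38 build, as are all gene positions here). Tgfb1 had 722 and 503 fragments in the shGFP and shmaurka-1 libraries of CT26 and 1636 and 1521 in those of MC38. Scaled to library size with TMM, the trimmed mean of M-values, its levels were 34.2, 26.003, 62.2 and 59.2 CPM (counts scaled to a common library size). Both CT26 libraries thus lay below both MC38 libraries, and the control and knockdown libraries stood further apart in CT26 than in MC38. The line difference was -1.02 ± 0.12 (log2 fold change, CT26 over MC38, ± SE, edgeR quasi-likelihood test, Benjamini-Hochberg adjusted p = 7.22e-16). The knockdown library over its control gave a log2 value of -0.40 within CT26 (95% interval -0.56 to -0.23) and of -0.07 within MC38 (95% interval -0.17 to 0.03). These intervals are exact binomial ones, and they compare the 2 libraries and cover counting error only.

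Tgfb2, a ligand with prominent roles in development, was the scarcest of the 9 genes. It lies on chromosome 1 from 186622791 to 186707033 and shares that locus in the files with 2 other annotated genes. It had 23, 16, 123 and 127 fragments, or 1.09, 0.827, 4.68 and 4.94 CPM. Its line difference of -2.32 ± 0.32 was the widest among the ligands (adjusted p = 6.93e-13, edgeR). The 16 to 23 fragments of CT26 left the knockdown value of -0.38 with an interval from -1.42 to 0.58, so that a change of 2-fold downward would not have been detectable at this depth. In MC38 the value was 0.08 (95% interval -0.29 to 0.45).

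Tgfb3, the ligand named above as lowest with shmaurka-1 in CT26, had 300, 174, 782 and 798 fragments, which gave 14.2, 8.995, 29.7 and 31.1 CPM. The CT26 knockdown library was the lowest of the 4, and the pair of MC38 libraries differed little. The log2 value with knockdown was -0.66 in CT26 (95% interval -0.94 to -0.39), compared with 0.06 in MC38 (95% interval -0.08 to 0.21). These intervals did not overlap. Those of Tgfb1 and, narrowly, of Skil did not overlap between the lines either, and the share of all genes was not counted. The fold of 0.633 of Tgfb3 in CT26 stayed above the lower threshold of 0.6 that the study used. The line difference was -1.41 ± 0.15 (adjusted p = 1.41e-20, edgeR), and it was -1.06 between the shGFP libraries and -1.78 between the shmaurka-1 libraries. The locus given for Tgfb3 in the files, bases 85824658 to 86079754 of chromosome 12, also holds Ttll5, a tubulin-modifying enzyme, and 3 other genes. Whether strand was used in counting is not given in the sources used here. Ttll5 had 204, 211, 530 and 467 fragments and knockdown values of 0.17 in CT26 (95% interval -0.11 to 0.46), compared with -0.15 in MC38 (95% interval -0.33 to 0.03). Its line difference, -0.90 ± 0.16, had the sign of that of Tgfb3, and the part of shared reads in either gene was not tested.

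The genes with the pattern most like that of Tgfb3 over the 4 libraries were Tcte2, Ddt and Abhd4, by the Euclidean distance between log2 CPM values centred on each gene's mean. Tcte2 lay at a distance of 0.106, with 33, 18, 95 and 89 fragments. Ddt, which encodes D-dopachrome tautomerase, lay at 0.116 with 96, 60, 278 and 284 fragments. Abhd4, a lipid hydrolase, lay at 0.121 with 719, 421, 2067 and 1915 fragments. With 4 libraries such likeness is common, and 498 genes lay within 0.5 of Tgfb3.

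Tgfbr1, the type I receptor kinase (chromosome 4, 47353221 to 47414931), was the member with the most even level. It had 410, 407, 510 and 573 fragments, or 19.4, 21.0, 19.4 and 22.3 CPM, and the lines overlapped. Its line difference was -0.04 ± 0.14 (adjusted p = 0.819, edgeR). With total-count in place of TMM scaling, which moved the median line difference of all genes from 0.07 to -0.30, Tgfbr1 was called lower in CT26, at -0.41 (adjusted p = 0.00712). The knockdown library was above its control by 0.11 in CT26 (95% interval -0.09 to 0.32) and by 0.20 in MC38 (95% interval 0.03 to 0.38), the only member interval above 0 in either line. Intervals wholly above 0 were found in 23.4% of all genes tested in MC38.

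Tgfbr2, the ligand-binding type II receptor (chromosome 9, 116084292 to 116175360), was more abundant in CT26, with 2545 and 2027 fragments there and 1382 and 1262 in MC38. Its levels were 120.7, 104.8, 52.5 and 49.1 CPM, and the line difference was 1.15 ± 0.11 (adjusted p = 6.43e-25, edgeR). The control library was above the knockdown library in each line. The knockdown value was -0.20 in CT26 (95% interval -0.29 to -0.12), compared with -0.10 in MC38 (95% interval -0.21 to 0.01). The ligands and their type II receptor thus stood on opposite sides between the lines.

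Smad3, the transcription factor activated by the receptor (chromosome 9, 63646766 to 63757994), had 1385, 1107, 971 and 876 fragments, or 65.7, 57.2, 36.9 and 34.1 CPM. It was higher in CT26 by 0.79 ± 0.12 (adjusted p = 2.33e-10, edgeR). Knockdown gave -0.20 in CT26 (95% interval -0.31 to -0.08), compared with -0.11 in MC38 (95% interval -0.25 to 0.02). On the deposited FPKM scale (fragments corrected for transcript length and depth), the 4 values were 11.3, 11.2, 6.61 and 7.02, so the difference with knockdown in CT26 was smaller and that in MC38 had the other sign, while the line difference kept its direction.

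Smad7, the inhibitory SMAD that binds the activated type I receptor (chromosome 18, 75367528 to 75395935), separated the lines most among the 9 genes with TMM scaling. With total-count scaling Tgfb2 did so, at -2.69, and Smad7 had 2.51. It had 1423 and 1259 fragments in CT26 and 247 and 221 in MC38, or 67.5, 65.1, 9.39 and 8.60 CPM. The log2 line difference was 2.88 ± 0.14 (adjusted p = 5.72e-90, edgeR), a fold of 7.36. It was 2.84 between the shGFP libraries and 2.91 between the shmaurka-1 libraries. Knockdown gave -0.05 in CT26 (95% interval -0.16 to 0.06), compared with -0.13 in MC38 (95% interval -0.40 to 0.14).

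Skil, the repressor of SMAD complexes that is itself a TGF-β target (chromosome 3, 31095057 to 31122577), had the most fragments of the 9 genes in CT26, 2981 and 2417, and had 1612 and 1577 in MC38. Its levels were 141, 125, 61.3 and 61.4 CPM. The line difference was 1.12 ± 0.11 (adjusted p = 8.82e-25, edgeR), close to that of Tgfbr2. Within CT26 the knockdown value was -0.18 (95% interval -0.26 to -0.10), and in MC38 the 2 libraries were level (0.0020, 95% interval -0.10 to 0.10).

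Id1, the BMP target (chromosome 2, 152736250 to 152737410), ran with the ligands. It had 108, 96, 303 and 341 fragments, or 5.12, 4.96, 11.5 and 13.3 CPM, and its line difference was -1.29 ± 0.20 (adjusted p = 1.13e-10, edgeR). The knockdown values were -0.05 in CT26 (95% interval -0.46 to 0.36), compared with 0.20 in MC38 (95% interval -0.02 to 0.43). Both intervals held 0.

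Sequences just before the annotated start are shown for 4 of the genes that separated the lines, since ligands and receptor lay on opposite sides. Tgfb2 and Tgfb1 were higher in MC38, and Tgfbr2 and Smad3 were higher in CT26. Each is the 250 bases upstream of a RefSeq transcript start, on the strand of the gene, from RefSeq GRCm38.p6. For Tgfb2 the window lies within the locus that the files give, which starts further upstream, at 186707033 on the minus strand, so it precedes that RefSeq start and not the first base of the locus. For Tgfb1 the window ends at 25687001, which is also the deposited start of its locus. Deposited starts and promoter positions may thus be numbered differently. Of the 9 genes 5 matched an entry, and Tgfb3, Smad7, Skil and Id1 did not. Capitals mark CAGAC, the core of the SMAD-binding element, read on either strand (so also GTCTG), and TATAAA, the TATA box, read on the strand of the gene. The positions are chr1:186705990-186706239 (minus strand) for Tgfb2, chr7:25686752-25687001 (plus strand) for Tgfb1, chr9:116175364-116175613 (minus strand) for Tgfbr2 and chr9:63757995-63758244 (minus strand) for Smad3.
Tgfb2: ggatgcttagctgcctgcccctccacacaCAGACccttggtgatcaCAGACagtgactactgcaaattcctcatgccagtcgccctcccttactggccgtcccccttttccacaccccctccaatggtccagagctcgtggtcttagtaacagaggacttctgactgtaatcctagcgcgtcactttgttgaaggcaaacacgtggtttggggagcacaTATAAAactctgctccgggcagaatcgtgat
Tgfb1: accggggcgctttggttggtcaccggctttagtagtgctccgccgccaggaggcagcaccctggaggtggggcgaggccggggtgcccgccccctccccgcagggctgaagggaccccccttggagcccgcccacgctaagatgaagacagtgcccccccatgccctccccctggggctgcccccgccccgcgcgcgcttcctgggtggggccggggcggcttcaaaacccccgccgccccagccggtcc
Tgfbr2: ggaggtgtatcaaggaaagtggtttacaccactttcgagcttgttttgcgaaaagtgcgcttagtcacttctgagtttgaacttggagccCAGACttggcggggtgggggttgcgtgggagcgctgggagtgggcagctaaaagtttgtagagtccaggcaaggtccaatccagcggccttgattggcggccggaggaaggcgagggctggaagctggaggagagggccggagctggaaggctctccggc
Smad3: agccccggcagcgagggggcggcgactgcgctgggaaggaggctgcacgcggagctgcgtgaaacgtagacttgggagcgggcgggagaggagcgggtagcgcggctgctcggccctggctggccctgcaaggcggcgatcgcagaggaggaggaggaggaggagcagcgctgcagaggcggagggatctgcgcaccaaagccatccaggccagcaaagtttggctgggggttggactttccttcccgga

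Tgfb2, the ligand with the widest line difference, held 2 copies of CAGAC and a TATAAA that began 31 bases before the start, and 53.6% of its bases were G or C. Tgfbr2 held 1 CAGAC and no TATAAA, with 58.4% G or C. Tgfb1 and Smad3 held neither, and their windows were 75.2% and 69.2% G or C, against a median of 52.4% over all RefSeq promoters in the table. CAGAC on either strand occurred in 42.2% of the 32851 promoters and TATAAA in 7.59%. Tgfbr1 had a start of 74.8% G or C with neither motif and a second one, chr4:47385966-47386215, with 1 CAGAC and 52.8% G or C. The CAGAC motif thus occurred in a gene that was higher in MC38 and in one that was higher in CT26. These are matches of letters, not measured binding sites.

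The test of the knockdown effect common to both lines, with cell line as a block, called 0 of the 9 genes (edgeR). At an unadjusted p under 0.05 the count was also 0 (12.4% of all genes), as it was with DESeq2 (4.17% of all genes) and with limma (9.08%). Of all 11928 genes tested, 344 were called (2.88%), 213 higher (1.79%) and 131 lower (1.1%) with shmaurka-1. The largest value among the members was that of Tgfb3, -0.26 ± 0.15 (adjusted p = 0.502, edgeR), followed by Tgfb1 with -0.23 ± 0.12 (adjusted p = 0.460). Tgfbr1 had the highest value, 0.16 ± 0.14 (adjusted p = 0.762). The SE of Tgfb2 was 0.30 and those of the other members lay between 0.11 and 0.19.

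**Figure D2:**
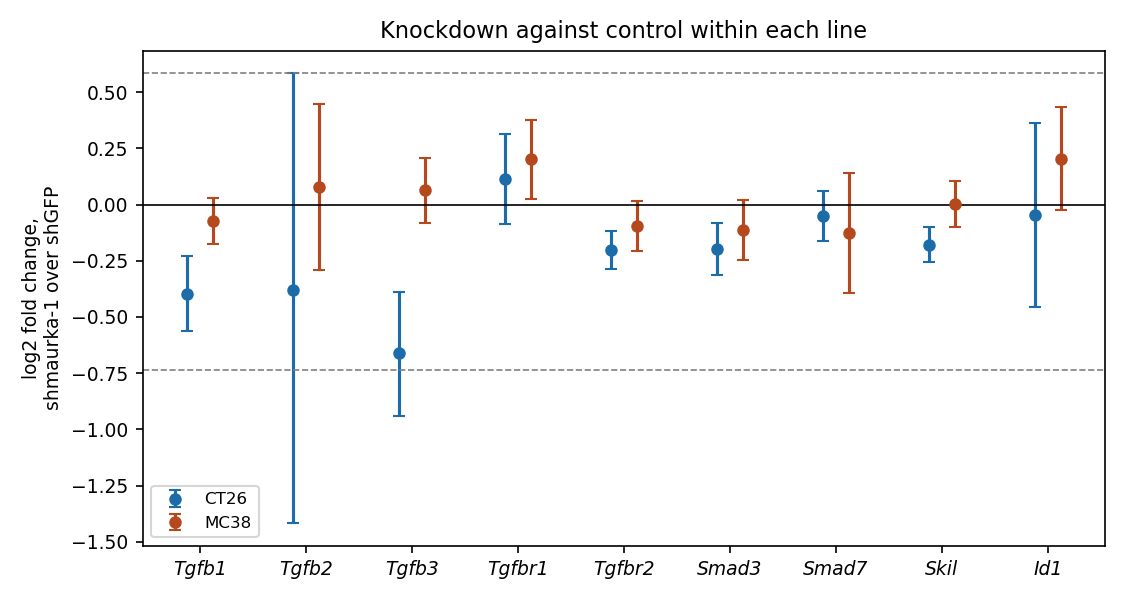
Log2 fold change of shmaurka-1 over shGFP within CT26 and within MC38 for the 9 genes, with exact 95% intervals that cover counting error only, and dashed lines at the fold thresholds of 1.5 and 0.6. In CT26 the points of Tgfb1, Tgfb3, Tgfbr2, Smad3 and Skil lie below 0 with their intervals, and in MC38 that of Tgfbr1 lies above 0.

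Within each line, 0 of the 9 genes passed a fold of 1.5 or 0.6, where 5.8% of all genes tested did so in CT26 (3.25% above 1.5 and 2.55% below 0.6) and 3.55% in MC38 (2.55% above 1.5 and 1.01% below 0.6). Exact intervals lay below 0 for 5 of the 9 genes in CT26, against 20.6% of all genes, and for 0 in MC38, against 21.6%. The fold change was below 0 for 8 of the 9 genes in CT26 (50.3% of all genes), with a median of -0.20, and for 4 in MC38 (49.3%), with a median of 0.0020. On the deposited FPKM the counts were 6 of 9 in CT26, where Tgfb2 and Id1 were then above 0, and 3 of 9 in MC38. The median of all genes tested was 0.00 in each line. The signs in the lines were opposite for 4 of the 9 genes (43.2% of all genes), and for 0 of the 9 did both intervals also exclude 0 (7.45%). In CT26, intervals above 0 were found for 0 of the 9 genes and for 22.7% of all genes. No replicate of either condition was at hand, so a lower level in this CT26 library and a lower level with knockdown cannot be told apart.

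Between the lines, edgeR called 4 of the 9 genes higher in CT26 (39.8% of all genes tested) and 4 lower (34%). As 73.8% of all genes were called, 8 of 9 is close to the background and the number of calls is no feature of these genes. Line differences over 2-fold with both hairpins were fewer, at 14.2% of all genes higher and 14.4% lower in CT26. Among the members Tgfbr2, Smad7 and Skil passed that limit in the higher direction and Tgfb2, Tgfb3 and Id1 in the lower. These depend on the scaling, since with total-count scaling the fitted log2 line difference was 0.78 for Tgfbr2 and 0.75 for Skil, under 2-fold, and -1.39 for Tgfb1. Total-count scaling called 3129 genes higher and 5745 lower in CT26, so that the share higher was 35.3% instead of 54.0%, and it kept the direction of each of the 8 members called.

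**Figure D3:**
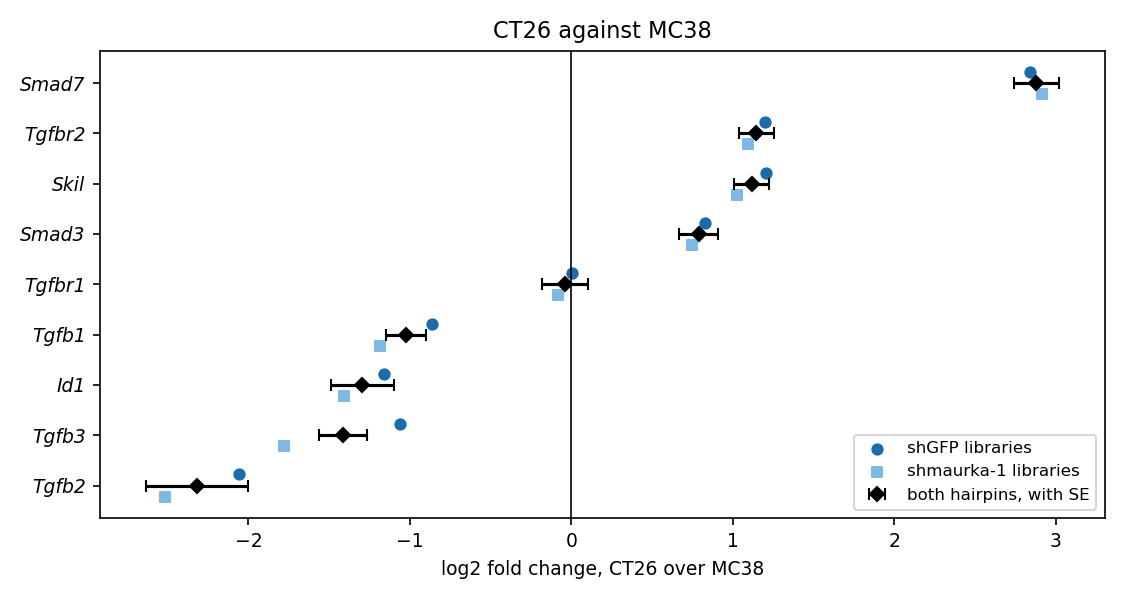
Log2 fold change of CT26 over MC38 for the 9 genes, between the shGFP libraries (circles), between the shmaurka-1 libraries (squares) and fitted over both (diamonds, bars are SE). Smad7, Tgfbr2, Skil and Smad3 lie to the right of 0, Tgfb1, Id1, Tgfb3 and Tgfb2 to the left, and Tgfbr1 at 0.

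Levels of different genes were compared as FPKM, which allows for transcript length. In CT26 the order of mean FPKM was Skil, Smad7, Tgfbr2, Smad3, Tgfb1, Tgfbr1, Id1, Tgfb3 and Tgfb2. The FPKM of Skil was 34.5 and 29.7 in the 2 CT26 libraries, that of Smad7 29.5 and 28.1, and that of Tgfb2 0.233 and 0.263. No pair of neighbours in this order overlapped over the 2 libraries of the line. In MC38 Tgfb1 came first with an FPKM of 21.8 and 19.8, then Skil, Id1, Tgfbr2, Tgfb3, Tgfbr1, Smad3, Smad7 and Tgfb2. Here only Tgfbr1 (6.25 and 7.51) and Smad3 (6.61 and 7.02) overlapped. The inhibitor Smad7 moved from the second place in CT26 to the eighth in MC38, where its FPKM was 3.30 and 2.97.

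Ratios of FPKM within a library do not depend on the scaling between libraries. Tgfb1 gave 74.7% and 77.9% of the summed ligand FPKM in CT26 and 71.5% and 68.7% in MC38, and Tgfb2 gave 1.60%, 2.31%, 3.70% and 4.30%. Tgfb1 was thus the main ligand in every library, and the sum of the 3 was 14.5 and 11.4 in CT26 and 30.4 and 28.9 in MC38. Tgfb1 was at 0.519 and 0.466 of Tgfbr2 in CT26 and at 2.21 and 2.196 times Tgfbr2 in MC38. Tgfbr2 exceeded Tgfbr1 by 3.28 and 2.98 times in CT26 and by 1.57 and 1.20 times in MC38. The ratio of the inhibitor Smad7 to Smad3 was 2.62 and 2.51 in CT26 and 0.5002 and 0.423 in MC38. In each of these ratios, the share of Tgfb2 and Tgfb1 included, the libraries of the 2 lines did not overlap. How often this holds for other pairs of genes was not counted. As 73.8% of all genes tested passed the test between the lines, such separation is no feature of these pairs.

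**Figure D4:**
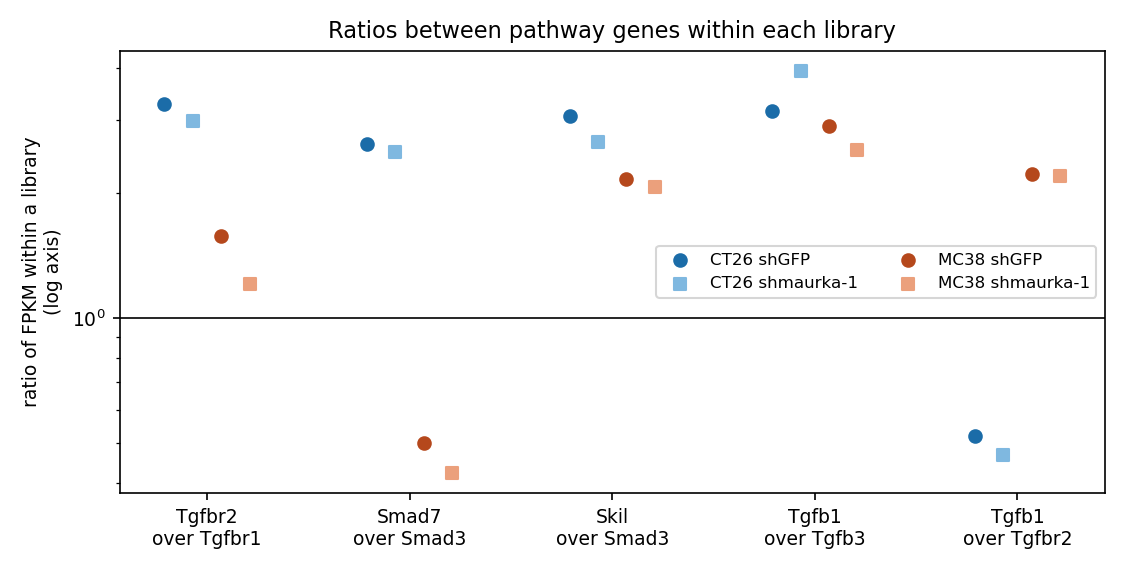
Ratio of FPKM between pairs of pathway genes within each library (log axis), 1 point per library, with a line at a ratio of 1. Smad7 over Smad3 and Tgfb1 over Tgfbr2 lie on opposite sides of 1 in the 2 lines.

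The rest of the pathway was read from 5 lists of 72 genes, of which 56 passed the filter of a mean of 10 counts in each line. With knockdown, the common test called 2 of the 56 lower and 0 higher (edgeR), where 1.1% of all genes were called lower and 1.79% higher. DESeq2 also called 2 lower and 0 higher, limma called 0, and edgeR with total-count scaling called 4 lower. At an unadjusted p under 0.05, edgeR had 1 higher and 12 lower, DESeq2 0 and 6, and limma 1 and 6, where 12.4%, 4.17% and 9.08% of all genes passed in either direction. Both edgeR calls with TMM scaling were targets of the pathway. Klf10, a transcription factor induced early by TGF-β, had 1374, 682, 1245 and 440 fragments. Knockdown gave -0.89 in CT26 and -1.46 in MC38 on the log2 scale, with a common value of -1.16 (adjusted p = 3.20e-16, edgeR). Bhlhe40, a basic helix-loop-helix repressor that also responds to hypoxia and to the clock, had 6607, 3288, 776 and 570 fragments and fell by 0.67 on the log2 scale in common (adjusted p = 1.70e-07). It shares its locus in the files with 3 other genes. Both calls were lost with limma on FPKM (adjusted p = 0.303 for Klf10 and 0.343 for Bhlhe40). Klf10 was below a fold of 0.6 in both lines, as were 0.168% of all genes tested.

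Among the other target genes of TGF-β, 15 of 17 could be tested, and 14 of these had a fold change below 0 with knockdown in CT26 (50.3% of all genes) and 11 in MC38 (49.3% of all genes). Their exact intervals lay below 0 for 13 of 15 in CT26 (20.6% of all genes) and for 5 in MC38 (21.6%), and the medians were -0.36 and -0.14. The list of target genes also stood highest in CT26 against MC38, with 12 of 15 called higher (39.8% of all genes), 0 called lower (34%) and a median of 2.09, where the median of all genes was 0.07. With total-count scaling 11 were called higher and the median was 1.72. This list was chosen with earlier results of these data known, so its counts are no independent test. Timp1, an inhibitor of matrix metalloproteinases, had 7421, 5322, 614 and 608 fragments and a line difference of 3.73 ± 0.11. Its deposited locus is shared with 7 other genes. Fn1, which encodes the matrix protein fibronectin, had 97812, 83127, 65817 and 81750 fragments and a line difference of 0.66. The filter left out 2 targets, and 1 of them ran the other way. Cdkn2b, a cell cycle inhibitor induced by TGF-β, had 0, 1, 188 and 164 fragments and so was far higher in MC38, and it is in neither the counts nor the median. It and a further 3 targets were chosen for naming after their values were seen. Ccn2, the connective tissue growth factor, which the files list under its older symbol, had 554, 508, 19 and 16 fragments, and Il11, a cytokine, had 503, 269, 23 and 21. Cdkn1a, a cell cycle inhibitor that p53 also drives, had 15510, 12487, 1017 and 796 fragments.

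**Figure D5:**
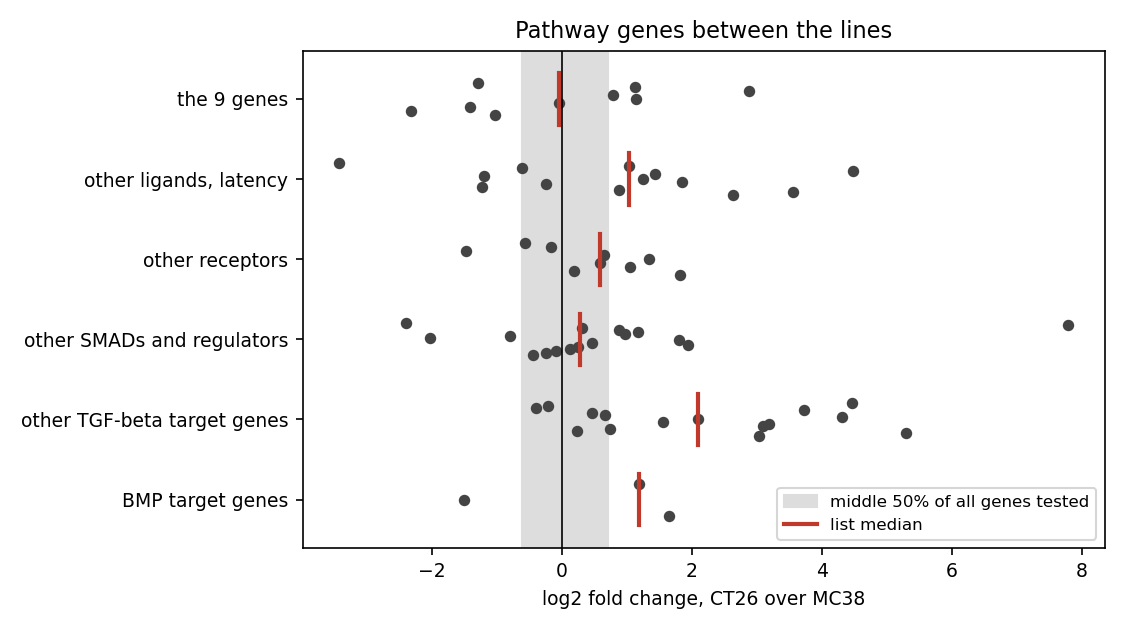
Log2 fold change of CT26 over MC38 for the 9 genes and the tested genes of 5 further pathway lists, 1 point per gene, with the list median in red and the middle 50% of all genes tested in grey. The target genes of TGF-β have a median of 2.09 and the 9 genes one of -0.04.

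Of 18 other ligands and latency proteins, 13 were tested, with 8 called higher and 4 lower in CT26 and a median of 1.03. With knockdown 12 of the 13 had a fold change below 0 in CT26 and 8 in MC38, and the medians were -0.21 and -0.09. Exact intervals lay below 0 for 8 of the 13 in CT26 and above 0 for 0, and in MC38 for 4 and 2. Of all genes 39.8% were called higher and 34% lower between the lines. With knockdown 50.3% of all genes were below 0 in CT26 and 49.3% in MC38. Their exact intervals lay below 0 for 20.6% and above 0 for 22.7% in CT26, and in MC38 for 21.6% and 23.4%. These shares also hold beside the counts of the lists that follow. Ltbp1, which anchors latent TGF-β in the matrix, had 14906, 13455, 2832 and 3071 fragments and a line difference of 2.63 ± 0.10. Itgav, the αv integrin that can release active TGF-β from its latent form, had 6024, 5000, 3214 and 2745 fragments and a line difference of 1.25. Inhba is the activin A subunit, whose receptors also activate Smad2 and Smad3. It was chosen after its values were seen and had 3440, 2333, 143 and 183 fragments. Its deposited locus is shared with 6 other genes. Gdf15, a distant member of the family, was left out of these counts by the filter. It was chosen in the same way, had 2, 8, 1169 and 944 fragments and was thus far higher in MC38. Of 11 other receptors 9 were tested, with 5 higher, 2 lower and a median of 0.59, and 4 higher and 3 lower with total-count scaling. With knockdown 8 of the 9 were below 0 in CT26 and 7 in MC38. The medians of -0.40 and -0.20 were further below 0 than those of the target genes. Exact intervals lay below 0 for 4 of the 9 in CT26 and above 0 for 1, and in MC38 for 3 and 0. Acvr1, a type I receptor for BMPs and activins, had 1619, 1621, 1001 and 1019 fragments and a line difference of 1.05. Bmpr1a, a BMP receptor, had 1829, 1657, 2613 and 2406 fragments and did not pass the test (-0.16, adjusted p = 0.157, edgeR), but with total-count scaling it was called lower in CT26 (-0.53, adjusted p = 9.905e-07). With knockdown edgeR called 0 of these ligands and receptors with TMM scaling, and 1 receptor lower with total-count scaling.

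Of 18 other SMADs and their regulators 16 were tested, with 9 higher in CT26, 4 lower and a median of 0.28, which turned to -0.10 with total-count scaling (6 higher and 7 lower). With knockdown 6 of the 16 were below 0 in CT26 and 7 in MC38. Exact intervals lay above 0 for 8 of the 16 in CT26 (22.7% of all genes) and below 0 for 3 (20.6%). In MC38 they lay above 0 for 3 (23.4%) and below 0 for 3 (21.6%). Ppm1a, a phosphatase that acts on activated SMADs, had 6095, 5699, 3445 and 3311 fragments and a line difference of 1.17. Tgif1, a corepressor of SMADs, had 4432, 3776, 1580 and 1458 and a line difference of 1.79. Pmepa1, a target that sequesters receptor-activated SMADs, was chosen after its values were seen. It had 2556, 1949, 10 and 15 fragments, and its line difference of 7.79 ± 0.20 was the largest of the 56 genes.

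The BMP side was thinner, with 3 of 8 target genes tested, 2 called higher in CT26 and 1 lower, with a median of 1.19. Id2, a relative of Id1, had 342, 166, 93 and 105 fragments and was higher in CT26, by 1.65 ± 0.21, and Id3 had 69, 77, 304 and 234 and was lower, by a line difference of -1.50 ± 0.21. Msx1, a homeobox gene and the third of them, named after its values were seen, had 297, 268, 166 and 152 fragments and was higher in CT26, by 1.19. Id1 and Id3 thus lay on the same side, and Id2 and Msx1 on the other. The filter left out genes near 0 in one line, some of which are given here after their values were seen. Smad9, a BMP-activated SMAD, had 1, 1, 390 and 479 fragments, Smad6, the inhibitory SMAD of the BMP branch, had 7, 9, 76 and 69, and Bambi, a decoy receptor, had 1, 2, 104 and 93. In each of these the MC38 libraries were the higher ones. The BMP target list lost 5 genes to the filter. Of those, Hey1, with 7, 2, 27 and 22 fragments, and Atoh8, with 3, 6, 37 and 32, were higher in MC38. Id4, Msx2 and Dlx5 had at most 4 fragments in a library. The median of 1.19 covers none of them.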

How the data were processed

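RNA-seq was analysed for 4 libraries, 1 per condition. Per the submitters' processing notes, reads were trimmed with Trimmomatic 0.36, aligned with HISAT2 and quantified with Cufflinks 2.2.1 and Cuffdiff. The authors deposited estimated counts, scaled between libraries, and FPKM for 51905 genes. The notes name GRCm39, but of 18221 genes that share their locus with no other, 99.8% lay over their namesake in GRCm38 and 9.55% in GRCm39. Estimated counts divided by the step of each library (1.06, 1.17, 0.885 and 0.901) were whole within 0.05 for 97.1% to 97.7% of values, which gave the fragments printed.

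Counts were rounded and fitted in edgeR 4.0.16 (R 4.3.3) with line and hairpin as terms, TMM scaling and Benjamini-Hochberg adjustment at 0.05, for the 11928 genes whose mean count reached 10 in both lines. The fit had 1 residual degree of freedom and an infinite prior, so the spread was taken as known from all genes, and p-values measure the spread between these libraries only. Within a line, folds used scaled counts with 1 count added, with exact 95% binomial intervals. DESeq2 1.42.0 and limma 3.58.1 were alternatives.

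The members and lists were chosen with earlier results of these data known. Named from each list were the genes called for knockdown (up to 6), those past the thresholds of 1.5 and 0.6 in both lines, and the 2 with the highest mean FPKM. For the member with the largest common change, the 3 genes nearest in pattern were named. Promoters came from RefSeq GRCm38.p6.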

Additional observations from a re-analysis of the deposited data

Results flagged for a closer look

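Some knockdown log2 fold changes had opposite signs in the lines, and in none of them was the difference between the lines tested, since each rests on 1 library per condition. Signs were opposite for 43.2% of all genes tested and for 4 of the 9 members. Tgfb3 had -0.66 in CT26 and 0.063 in MC38. Its exact intervals did not overlap, nor narrowly did those of Skil, and the share of all genes was not counted. Tgfb2 had -0.38 and 0.079, Skil -0.18 and 0.0020, and Id1 -0.045 and 0.20, in CT26 and MC38 respectively. With the deposited FPKM (pseudocounts of 1 and 0.1) the CT26 values were above 0 for Tgfb2 (0.035 and 0.13) and Id1 (0.037 and 0.044), so their signs were no longer opposite. Skil in MC38 was at -0.025 with total-count scaling and at -0.011 with DESeq2 size factors.

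Among the list genes, Id2 had -0.91 in CT26 and 0.21 in MC38, and Id3 the other order, 0.28 and -0.34. Fn1 had -0.11 and 0.35, Timp1 -0.36 and 0.019, Ltbp1 -0.023 and 0.15, and Ppm1a 0.028 and -0.024. The exact intervals of the lines did not overlap for Id2, Fn1, Timp1 and Ltbp1, and they overlapped for Id3 and Ppm1a. Over the alternatives the MC38 value of Timp1 lay between -0.0071 and 0.021, so its signs were not opposite under all of them.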

How the results depend on the processing

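With 1 library per condition no library could be left out of the tests, since none of the residual degrees of freedom would remain. The 4 libraries limit every comparison, and values of Tgfb2 in CT26 rest on few fragments. The labels give no replicate numbers, and the pairing used is that of cell line. Without this block the knockdown test called 0 genes higher and 0 lower (11 at an unadjusted p under 0.05), the calls of Aurka, Klf10 and Bhlhe40 were lost, and Tgfb2 had a value of 0.0018 in place of -0.06.

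The calls of all genes for knockdown depended on the tool, with 17 higher and 12 lower in DESeq2 and 0 higher and 1 lower in limma on log2(FPKM + 1), against 213 and 131 in edgeR. With limma on FPKM, Tgfb2 had 0.056, Smad3 0.035 (-0.16 in edgeR) and Ppm1a -0.0032, and the calls of Klf10 (-1.08, adjusted p = 0.303) and Bhlhe40 (-0.64, adjusted p = 0.343) were lost. Ppm1a, at 0.0022 in edgeR, had -0.025 with total-count scaling, -0.0072 on recovered fragments and -0.0058 in DESeq2. Total-count scaling called 157 genes higher and 163 lower with knockdown, a share higher of 49.1% in place of 61.9%, and called 3129 genes higher in CT26 than in MC38.

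Within CT26, FPKM with a pseudocount of 1 left 203 genes above 1.5-fold and 77 below 0.6, against 388 and 304. Within MC38 it left 127 and 27, against 304 and 120. A lower threshold of 1/1.5 gave 507 genes below it in CT26 and 235 in MC38, and it put 1 member, Tgfb3 in CT26, past it. With FPKM the knockdown value of Smad3 was -0.01 in CT26 and 0.08 to 0.09 in MC38. When a mean count of 50 was required in both lines, Tgfb2 could not be tested. The cause of these shifts was not tested. The line difference kept its direction for the 8 members called under every alternative that gave a value.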
